A study of Mus musculus with 9 samples.

Results

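The BCL2 family was followed in NIH 3T3 cells through 10 named members: the anti-apoptotic genes Bcl2, Bcl2l1, Bcl2l2 and Mcl1, the pore-forming effectors Bax and Bak1, and the BH3-only genes Bcl2l11, Bid, Bbc3 and Pmaip1. Members were chosen by gene symbol, and 9 of the 10 had a probe set, with 31 probe sets in all among the 45101 on the array. Bax was not analysed here, since no probe set carried that name alone in the probe table used. Each gene's main probe set was that with the largest mean of its log2 values on the 9 arrays. All 9 genes passed the filter on low signal, as did 10613 of the 18193 genes with a probe set, and of the 31 probe sets 27 passed.

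BCL2 proteins set the threshold for the mitochondrial route of apoptosis. Anti-apoptotic members hold the effectors BAX and BAK in check at the outer mitochondrial membrane, and BH3-only proteins, made or activated under stress or loss of growth signals, bind the anti-apoptotic members or engage the effectors directly. Once active, the effectors permeabilize the membrane, cytochrome c escapes and caspases follow. Several of these proteins, among them MCL1, BIM and NOXA, turn over rapidly through the ubiquitin system, so that transcript and protein need not move together, and only transcripts were measured here.

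NIH 3T3 is an established line of mouse embryonic fibroblasts. A retrovirus delivered short hairpin RNA (shRNA) directed at Ube2m, at Ube2f or, in the control group, a control hairpin, and total RNA was taken with Trizol 5 days later. The E2 enzymes encoded by Ube2m and Ube2f attach the ubiquitin-like protein NEDD8 to cullins, on which a large class of ubiquitin ligases is built. Each group held 3 arrays of 1-colour Affymetrix design, described in the labels as biological replicates. The growth text given for all 9 samples, controls included, describes the cells as expressing Ube2f, without saying whether an introduced copy is meant. All arrays came from this 1 line, and the labels do not say how many hairpin sequences were used per gene. In bulk RNA, fewer cells with a transcript and less of it per cell cannot be told apart.

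The Ube2f hairpin left Ube2f at 132 ± 13.2 signal units (SD, n = 3) against 2539 ± 199 in control arrays, or 5.21% of control (log2 fold change -4.11, limma adjusted p = 7.45e-10). No probe set used here was named for Ube2m alone, so that its knockdown was not checked. All 10 fibroblast markers were tested and their summed signal spanned 156327 to 192579 in control, 152624 to 173086 in Ube2m and 172751 to 198192 in Ube2f arrays. Of markers with a probe set, 0 of 8 endothelial and 0 of 5 adipocyte markers passed the filter, against 3 of 9 macrophage, 3 of 9 epithelial and 2 of 8 skeletal muscle markers. The summed signal of the epithelial list, most of it Krt14, spanned 3282 to 5380 in control, 5830 to 6548 in Ube2m and 2747 to 4227 in Ube2f arrays. The muscle list, most of it Acta1, spanned 625.8 to 910.2, 1057 to 1256 and 674.9 to 734.1 in the same order, and the macrophage list 949 to 1035, 918.5 to 1148 and 764 to 844.5. The part of these shifts in the results below was not tested. The array of control replicate 1 stood apart in how far the 3' beta-actin probe set exceeded the 5' one. The ratio was 1.82 against 1.24 to 1.35 on the other 8, a measure that rises as RNA or its labelled copy shortens. This ratio mainly marks that 1 array. A fit with it as a covariate is therefore not a check separate from leaving that array out. The arrays of replicate 3 had a median signal of 64 to 73.5, against 53.3 to 58.5 for replicates 1 and 2.

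Values are linear MAS5 signals in arbitrary units, a probe set's brightness after the authors' scaling, and fold changes are differences of log2(signal + 16) with their standard error (SE). A gene was called where its p-value from limma, adjusted by Benjamini-Hochberg over all 10613 genes, was at or under 0.05. Counts at an unadjusted p under 0.05 are given without the share of all genes at that level. They describe only the genes counted. No permutation test was run on single genes, because with 3 arrays a side the smallest exact p is 0.1.

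With the Ube2m hairpin, 2 BH3-only genes rose and 1 anti-apoptotic gene fell: Bcl2l11 to 2.27 times and Pmaip1 to 1.47 times the control level, and Bcl2l1, on its main probe set, to 0.655 of it. The other 6 members tested missed the threshold. Those 3 of 9 stand beside 9.71% of all genes called in this comparison, 3.59% higher and 6.12% lower. With the Ube2f hairpin 0 of 9 members were called, with 3 at an unadjusted p under 0.05, where 5.19% of all genes were called, 2.23% higher and 2.96% lower. In the direct comparison of the hairpins, Bcl2l11 and Pmaip1 were higher with Ube2m, 2 of 9 where 15.8% of all genes were called, 6.37% higher and 9.38% lower.

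Arrays of the groups did not overlap for 5 members between Ube2m and control (29.7% of all genes), 2 between Ube2f and control (23.2%) and 5 between Ube2m and Ube2f (34.4%). The median log2 fold change over the 9 members was -0.020, -0.016 and 0.0042 in the 3 comparisons, beside -0.038, 0.011 and -0.044 over all genes tested. Both comparisons with control use the same 3 control arrays, and so their values are given side by side without a measure of likeness.

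**Figure D1:**
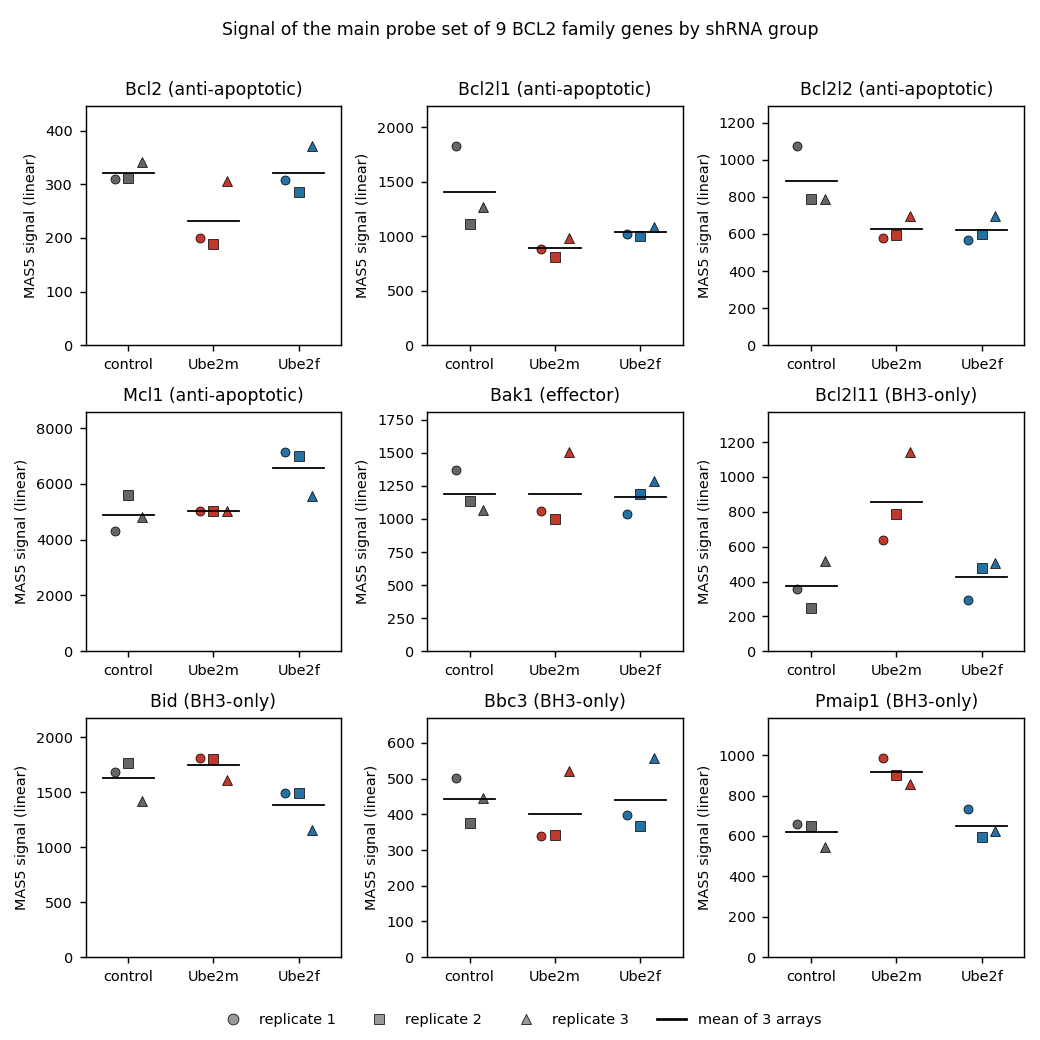
Linear MAS5 signal of the main probe set of 9 BCL2 family genes on each array, by shRNA group (circle, square and triangle for replicates 1, 2 and 3; line, mean of 3 arrays; each panel starts at 0 and has its own scale). The 3 Ube2m arrays lie above all others for Bcl2l11 (639.5 to 1146) and Pmaip1 (856.7 to 988.3) and below all others for Bcl2l1 (814.9 to 988.6).

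Promoter sequences are shown for Bcl2l11, the member with the largest called difference, and Bcl2l1, the member called lower. RefSeq's promoter table for GRCm38.p6 held 14 starts for 9 of the 10 members, each with 250 bases before and 50 after the start. It lists 2 starts for Bcl2l11, both on the + strand, at chr2:128125788-128126087 and chr2:128127325-128127624, and 3 for Bcl2l1, of which the one at chr2:152828440-152828739 (- strand) is printed since it alone held a motif match. Pmaip1 is named only. Capitals mark matches, on either strand, to any of 8 motifs searched.
Bcl2l11 start 1: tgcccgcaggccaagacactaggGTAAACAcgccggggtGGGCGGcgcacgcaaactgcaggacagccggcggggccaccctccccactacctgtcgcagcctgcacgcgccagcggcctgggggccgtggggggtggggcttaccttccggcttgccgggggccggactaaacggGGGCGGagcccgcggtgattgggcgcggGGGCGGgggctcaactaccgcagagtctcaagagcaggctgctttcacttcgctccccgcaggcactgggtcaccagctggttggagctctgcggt
Bcl2l11 start 2: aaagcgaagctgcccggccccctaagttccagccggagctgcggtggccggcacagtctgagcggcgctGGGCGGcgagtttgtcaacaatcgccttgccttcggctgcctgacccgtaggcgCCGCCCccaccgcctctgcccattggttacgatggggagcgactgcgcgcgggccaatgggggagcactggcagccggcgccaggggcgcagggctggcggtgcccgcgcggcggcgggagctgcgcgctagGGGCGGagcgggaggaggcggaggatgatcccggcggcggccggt
Bcl2l1 start: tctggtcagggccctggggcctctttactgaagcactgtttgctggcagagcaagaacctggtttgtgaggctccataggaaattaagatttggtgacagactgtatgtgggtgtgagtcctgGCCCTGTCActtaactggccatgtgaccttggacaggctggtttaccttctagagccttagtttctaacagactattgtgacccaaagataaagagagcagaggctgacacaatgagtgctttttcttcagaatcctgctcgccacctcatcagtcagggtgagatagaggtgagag

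The Bcl2l11 windows were rich in G and C, at 71% and 74% against a median of 52.7% over the 32851 promoters in the table. Members that were not called had rich windows too, with 76% for Bcl2 and 74.7% to 78% for Bbc3. Bak1, Bid, Bcl2l2 and Mcl1 held 58.3% to 65.7%. The Bcl2l1 window printed held 49.3%, and the other windows of that gene 52.3% and 55.7%. Each Bcl2l11 window held 3 GC boxes (GGGCGG), a motif found in 35.7% of promoters. Windows of Bcl2, Bcl2l2, Mcl1, Bid and Bbc3, which were not called, held GC boxes as well. Start 1 also held 1 match to the forkhead FOXO motif TGTTTAC, read on the opposite strand as GTAAACA and beginning at base -227 from the start. That motif occurred in 3.65% of promoters, and 1 of the 3 Bbc3 windows held it as well. The printed Bcl2l1 window held 1 match to the core of the antioxidant response element, TGACNNNGC (12.4% of promoters). That window was picked because it held a match, and the other Bcl2l1 windows held none, so the share does not measure how unusual the match is. The other motifs searched were E2F TTTCCCGC (1.07%), the E-box CACGTG (7.15%), AP-1 TGANTCA (7.81%), CRE TGACGTCA (1.79%) and the C/EBP-ATF composite TGATGNAA (3.97%). None of these matched in the 3 printed windows. A match describes the letters of the window and shows no binding.

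Bcl2, the founding anti-apoptotic member, gave 310, 312.4 and 340.5 in control replicates 1, 2 and 3, 200.5, 188.6 and 305.4 with the Ube2m hairpin, and 308.4, 285.2 and 371.8 with the Ube2f hairpin. Ube2m replicates 1 and 2 were the lowest of the 9 arrays, while Ube2m replicate 3 lay just under the lowest control and inside the Ube2f range. The log2 fold change with Ube2m was -0.47 (SE 0.187, 95% interval -0.88 to -0.07, adjusted p = 0.134), and with Ube2f -0.0035 (adjusted p = 0.994), so that neither was called. Within replicates 1 and 2 the Ube2m difference was -0.64, and within replicate 3 it was -0.15. It was called without Ube2m replicate 3 (-0.68, adjusted p = 0.0339), in replicates 1 and 2 alone (adjusted p = 0.0308) and with replicate 3 as a separate term (0.0368). A pair of other Bcl2 probe sets above the filter also averaged lower with Ube2m (-0.61 and -1.10), with overlapping arrays. The latter gave 26.3, 11.4 and 118.5 in Ube2m replicates 1, 2 and 3. Replicates 1 and 2 thus lay under the filter signal of 53.8, and replicate 3 above every control. A further pair, below the filter, averaged higher with Ube2m (46.9 against 41.5 in control, and 38.1 against 28.9). With all Bcl2 probe sets averaged the difference was -0.32 (limma adjusted p = 0.624).

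Bcl2l1 encodes BCL-XL, which restrains BAX and BAK in many cell types. Its main probe set gave 1833, 1112 and 1265 in control replicates 1, 2 and 3, 883.2, 814.9 and 988.6 with Ube2m, and 1024, 1002 and 1087 with Ube2f. Every knockdown array lay below every control array, and control replicate 1 was far above the other 2 controls. The fall with Ube2m was -0.61 in log2 (SE 0.162, 95% interval -0.96 to -0.26, adjusted p = 0.0329); with Ube2f the difference was -0.40 (adjusted p = 0.184).

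The Bcl2l1 call depended on single arrays and on the probe set. In the limma fit of probe sets, its main one was not called with Ube2m against control (adjusted p = 0.0596). Without control replicate 1, the array with the high beta-actin ratio, the difference was -0.40 (adjusted p = 0.096), and with that ratio as a covariate -0.41 (adjusted p = 0.103). It was also lost without Ube2m replicate 1 (adjusted p = 0.103), Ube2m replicate 2 (0.131) or Ube2f replicate 1 (0.0517), when only the arrays compared were fitted (0.0545), and with each array centred on its median (-0.70, adjusted p = 0.0502). Within replicates 1 and 2 the difference was -0.74, and within replicate 3 it was -0.35. The Bcl2l1 probe sets did not move alike: of the other 2 above the filter, one differed by -0.09 and one by 0.60, with control replicate 1 at 16.1 against 218.5 and 226.6 in the other controls. The mean of all Bcl2l1 probe sets was 0.13 higher with Ube2m (limma adjusted p = 0.806). That mean took in a further probe set, below the filter. The latter gave 3.8, 9.5 and 3.1 in control replicates 1, 2 and 3, and 26.1, 1.6 and 32.7 with Ube2m. Its part in the turn of sign was not tested.

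Bcl2l2, which encodes the anti-apoptotic protein BCL-W, gave 1076, 789.5 and 790.3 in control replicates 1, 2 and 3, 577.8, 596 and 698.5 with Ube2m, and 567.7, 601 and 698.7 with Ube2f. All 6 knockdown arrays lay below all 3 controls, and control replicate 1 was again the highest. Differences of -0.48 with Ube2m (SE 0.149, 95% interval -0.81 to -0.16, adjusted p = 0.0607) and -0.49 with Ube2f (adjusted p = 0.0822) missed the threshold. Without control replicate 1 they were -0.34 and -0.34. Within replicates 1 and 2 they were -0.64 in both knockdowns and were called (adjusted p = 0.016 and 0.0224), as they were with replicate 3 as a separate term (0.0253 and 0.0326), while within replicate 3 they were -0.17 in both. On this main probe set Ube2m and Ube2f arrays differed by 0.0042 (95% interval -0.32 to 0.33, adjusted p = 0.992). Another Bcl2l2 probe set above the filter differed from control by -0.48 with Ube2m and -0.36 with Ube2f. A further probe set differed by -0.10 and 0.59, and the arrays of both overlapped with control. With probe sets averaged, a Bcl2l2 probe set below the filter included, the differences were -0.40 with Ube2m (limma adjusted p = 0.403) and -0.22 with Ube2f (adjusted p = 0.708).

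Mcl1 encodes a short-lived anti-apoptotic protein degraded by the proteasome. It gave 4303, 5588 and 4797 in control replicates 1, 2 and 3, 5016, 5025 and 5037 with Ube2m, and 7158, 6983 and 5576 with Ube2f. Ube2m arrays sat inside the control range, and Ube2f replicates 1 and 2 were the highest of the 9, while Ube2f replicate 3 lay just below control replicate 2. The difference was 0.05 with Ube2m (95% interval -0.22 to 0.31, adjusted p = 0.87) and 0.42 with Ube2f (SE 0.123, 95% interval 0.16 to 0.69, adjusted p = 0.0689).

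The adjusted p of the Mcl1 difference with Ube2f moved to both sides of the threshold among the alternatives. It was 0.0211 without Ube2f replicate 3 (0.54), 0.0445 without control replicate 2 (0.52), 0.0264 after quantile normalization (0.44) and 0.0169 with replicate 3 as a separate term. It was 0.499 with arrays centred on their median (0.36), 0.139 with probe sets averaged (0.30), 0.249 with the beta-actin covariate (0.34), 0.219 without control replicate 1 (0.33) and 0.263 without Ube2f replicate 1 (0.36). Within replicates 1 and 2 the difference was 0.53 (adjusted p = 0.0126), and within replicate 3 it was 0.22. All 6 Mcl1 probe sets averaged higher with Ube2f than in control, by 0.09 to 0.45, and none was called in the limma fit of probe sets, the lowest adjusted p being 0.079. All 6 also averaged higher with Ube2f than with Ube2m, the main one by 0.38 with no overlap of the arrays (Ube2m minus Ube2f -0.38, adjusted p = 0.0561).

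Bak1, the effector measured here, gave 1373, 1136 and 1068 in control replicates 1, 2 and 3, 1060, 998.5 and 1509 with Ube2m, and 1035, 1186 and 1286 with Ube2f. The groups overlapped throughout, and the highest array was Ube2m replicate 3. Differences from control were -0.02 with Ube2m (95% interval -0.37 to 0.33, adjusted p = 0.962) and -0.03 with Ube2f (95% interval -0.38 to 0.32, adjusted p = 0.956). The Ube2m difference was -0.28 within replicates 1 and 2 and 0.49 within replicate 3, of opposite sign. A second probe set averaged 0.73 higher with Ube2m without being called (probe set fit, adjusted p = 0.231), with control replicate 1 at 51.7 against 161.2 and 142.9 in the other controls.

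Bcl2l11 encodes BIM, a BH3-only protein that binds all the main anti-apoptotic members and is induced when growth factors are withdrawn. Control replicates 1, 2 and 3 gave 355.1, 250.6 and 516.6, Ube2m arrays 639.5, 788.8 and 1146, and Ube2f arrays 293.4, 479.8 and 505.5. All 3 Ube2m arrays lay above the other 6, and the Ube2f arrays fell inside the control range. The mean was 858 ± 260 with Ube2m against 374 ± 134 in control and 426 ± 116 with Ube2f (SD, n = 3).

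Bcl2l11 rose by 1.18 in log2 with Ube2m (SE 0.275, 95% interval 0.58 to 1.78, adjusted p = 0.0194), while its difference with Ube2f was 0.20 (95% interval -0.40 to 0.80, adjusted p = 0.745). The direct difference between the hairpins was 0.98 (SE 0.275, adjusted p = 0.0293). Against control it was 1.21 within replicates 1 and 2 and 1.13 within replicate 3, and against Ube2f it was 0.89 and 1.16. The difference from control ranged from 0.93 to 1.43 when each array was left out in turn. Its call was lost without control replicate 1 (adjusted p = 0.0744), control replicate 2 (0.0648), Ube2m replicate 2 (0.0595) or Ube2m replicate 3 (0.0568), and with that beta-actin ratio entered as a covariate (1.15, adjusted p = 0.0753). Against Ube2f the range was 0.74 to 1.17, and the call was lost without Ube2m replicate 2 (0.0708), Ube2m replicate 3 (0.101), Ube2f replicate 1 (0.129) or Ube2f replicate 2 (0.0505), and without the filter (0.0502).

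Bcl2l11 had 5 probe sets above the filter, and in all 5 the Ube2m mean was above the control mean, by 0.68 to 1.24, and above the Ube2f mean, by 0.52 to 0.98. Against Ube2f the arrays did not overlap for any of the 5; against control they did not for 3. Fitted over 19684 probe sets, the main one was called against control (adjusted p = 0.0413) and another one (0.93, adjusted p = 0.0225) against Ube2f, where the main one had an adjusted p of 0.0544. Over the 27 family probe sets, 2 were called with Ube2m against control (5.37% of all probe sets), 0 with Ube2f (3.39%, with 6 of the 27 at an unadjusted p under 0.05) and 2 between the hairpins (10.8%), all of them of Bcl2l11 or Pmaip1.

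**Figure D2:**
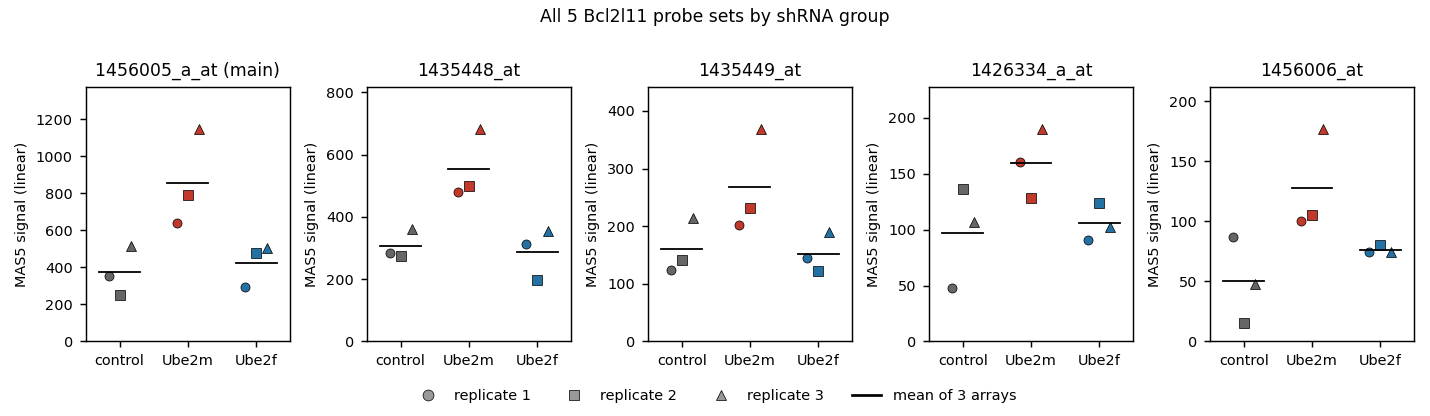
Linear MAS5 signal of each of the 5 Bcl2l11 probe sets on each array, by shRNA group (circle, square and triangle for replicates 1, 2 and 3; line, mean of 3 arrays; each panel starts at 0 with its own scale). In every panel the 3 Ube2m arrays lie above the 3 Ube2f arrays.

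Bid encodes a BH3-only protein that caspase-8 cleaves, linking death receptors to mitochondria. It gave 1685, 1769 and 1420 in control replicates 1, 2 and 3, 1815, 1804 and 1610 with Ube2m, and 1491, 1493 and 1158 with Ube2f. All 3 Ube2m arrays lay above all 3 Ube2f arrays, and both groups overlapped the controls. The difference from control was 0.10 with Ube2m (adjusted p = 0.684) and -0.24 with Ube2f (adjusted p = 0.342), and between the hairpins it was 0.34 (SE 0.13, adjusted p = 0.1). Between the hairpins another Bid probe set above the filter differed by 0.43 with no overlap, and a further probe set by -0.16 with overlap.

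Bbc3, which encodes the p53-induced protein PUMA, gave 502, 375.6 and 446.9 in control replicates 1, 2 and 3, 338.2, 342.5 and 522.6 with Ube2m, and 396.8, 366.9 and 559 with Ube2f. The groups overlapped, and the replicate 3 array was the highest in both knockdowns. Differences from control were -0.15 with Ube2m (95% interval -0.59 to 0.29, adjusted p = 0.708) and -0.02 with Ube2f (95% interval -0.45 to 0.42, adjusted p = 0.98). The Ube2m difference was -0.34 within replicates 1 and 2 and 0.22 within replicate 3, of opposite sign.

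Pmaip1 encodes NOXA, a BH3-only protein that pairs with MCL1 and promotes its degradation. Control replicates 1, 2 and 3 gave 658.1, 649.4 and 547.5, Ube2m arrays 988.3, 902.7 and 856.7, and Ube2f arrays 735.3, 593.6 and 624.7. All Ube2m arrays lay above the other 6, and Ube2f arrays overlapped the controls. Pmaip1 rose by 0.56 with Ube2m (SE 0.129, 95% interval 0.28 to 0.84, adjusted p = 0.0186), and its difference with Ube2f was 0.07 (95% interval -0.21 to 0.35, adjusted p = 0.816). The hairpins differed by 0.49 (SE 0.129, adjusted p = 0.0224).

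The Pmaip1 difference from control was 0.52 within replicates 1 and 2 and 0.63 within replicate 3, and from Ube2f 0.51 and 0.45. Leaving out single arrays gave 0.47 to 0.60 against control, and the call was lost without Ube2m replicate 1 (adjusted p = 0.0908) or Ube2m replicate 2 (0.0683). Against Ube2f the range was 0.42 to 0.57, and the call was lost without Ube2m replicate 1 (0.0994), Ube2m replicate 2 (0.0703), Ube2f replicate 2 (0.0846) or Ube2f replicate 3 (0.0538). With each array centred on its median, neither was called (0.47, adjusted p = 0.191, and 0.46, adjusted p = 0.184).

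**Figure D3:**
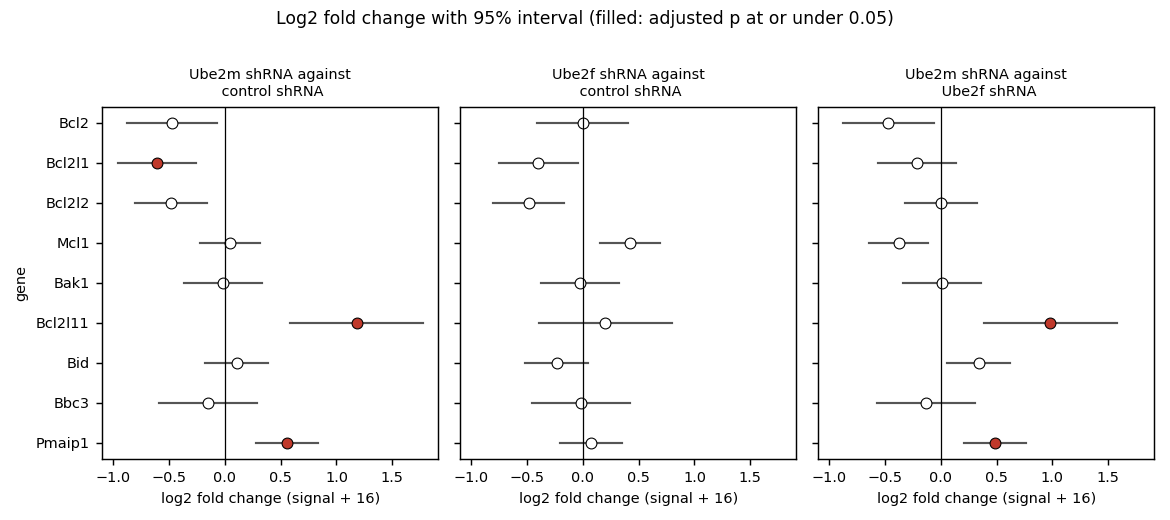
Log2 fold change of log2(signal + 16) for 9 BCL2 family genes in the 3 comparisons, with the 95% interval from limma; filled points have an adjusted p at or under 0.05. Bcl2l11 at 1.18 and Pmaip1 at 0.56 are filled to the right of 0 and Bcl2l1 at -0.61 to the left in the comparison of Ube2m with control, and no point is filled for Ube2f against control.

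Same-numbered arrays of the 2 knockdowns deviated together weakly in replicates 1 and 2 (r = 0.20 and 0.21) and more in replicate 3 (r = 0.56). In replicate 3 the Ube2m and Ube2f arrays also went with the control array (r = 0.32 and 0.35). Whether the numbers mark true pairs was not tested. With the number as a replicate block, a choice made with these correlations known, 5 members were called between Ube2m and Ube2f in place of 2. Bcl2l11 (adjusted p = 0.00225) and Pmaip1 (0.00633) stayed higher with Ube2m, and Bid joined them (0.34, adjusted p = 0.0133). Bcl2 (-0.47, adjusted p = 0.0448) and Mcl1 (-0.38, adjusted p = 0.0217) were lower with Ube2m in that blocked fit. With the block, 2493 of the 10613 genes were called in all, against 1672 without it.

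Across the 9 arrays the main probe sets of Bcl2l1 and Bcl2l2 followed each other most closely (Pearson r = 0.92), and Bcl2 ran opposite to Pmaip1 (r = -0.79) and Bid (r = -0.72). Bcl2l11 and Pmaip1 had r = 0.53 with each other. These are descriptions over 9 arrays that share a scaling and the group differences. Bcl2l1 and Bcl2l2 both had their highest signal on control replicate 1 (1833 and 1076). The part of that array in their r was not tested. Among all genes tested, the profiles closest to Bcl2l11 were those of Lpin1 (r = 0.97) and Marcksl1 (r = 0.96), closest to Pmaip1 those of Med19 (r = 0.97) and Calr3 (r = 0.96), and closest to Bcl2l1 those of Sidt2 and Hcfc1 (both r = 0.98).

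**Figure D4:**
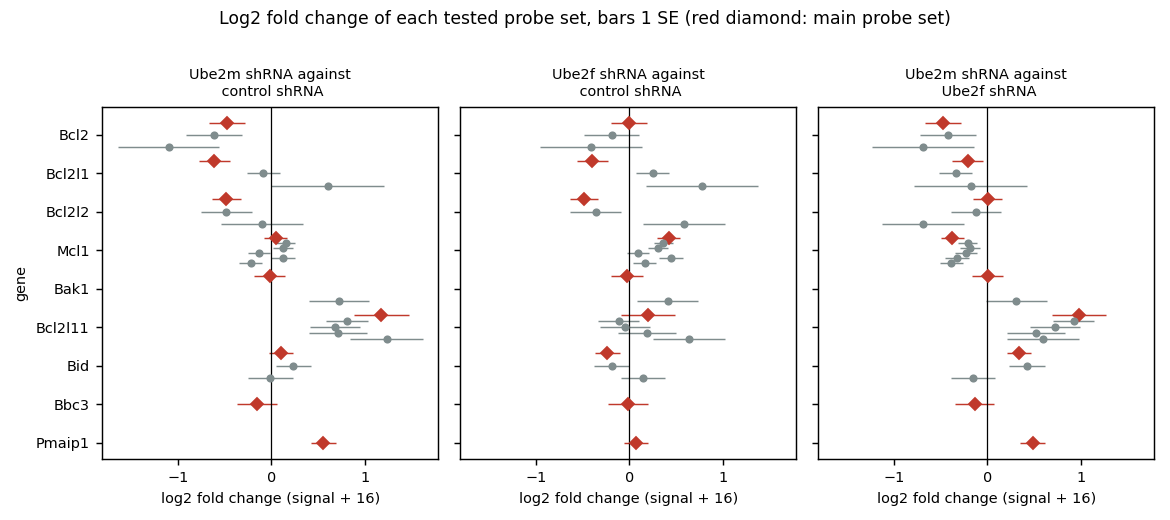
Log2 fold change of each of the 27 tested probe sets of the 9 genes in the 3 comparisons (diamond, main probe set; circle, other probe sets; bars, 1 SE). Bcl2l11 probe sets lie from 0.68 to 1.24 for Ube2m against control, the 1.24 on a probe set with a control mean under the filter signal. Those of Bcl2l1 lie on both sides of 0.

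Around the members, other genes of the family and of the pathway were taken from lists chosen with earlier results of these data known. Counts of calls in the lists are therefore descriptions. Of 16 other BCL2 family genes 7 were tested, and 1 was called with each knockdown against control. Their median log2 fold change was -0.0071 with Ube2m and 0.28 with Ube2f, beside -0.038 and 0.011 over all genes tested, the values against which the medians of the lists below stand as well. Calls in these lists stand beside 3.59% of all genes higher and 6.12% lower with Ube2m, 2.23% and 2.96% with Ube2f, and 6.37% and 9.38% between the hairpins. Each called gene was also fitted with arrays centred on their median and with the mean of all its probe sets, whether or not they passed the filter. Calls lost there are given. Bmf, a BH3-only gene tied to the cytoskeleton, gave 94.1, 139.2 and 81.2 in control and 173.9, 229.9 and 242.7 with Ube2m, with no overlap, and rose by 0.95 (adjusted p = 0.0197). Its call was lost without control replicate 1, control replicate 3, Ube2m replicate 2 or Ube2m replicate 3, with arrays centred (0.87, adjusted p = 0.0655) and with probe sets averaged (0.51, adjusted p = 0.221). Bnip3, a hypoxia-responsive gene of mitophagy, gave 819, 941 and 936.4 in control, 824.6, 907.3 and 818.8 with Ube2m, and 1714, 1567 and 1613 with Ube2f. It rose by 0.85 with Ube2f (adjusted p = 0.000943), was 0.93 lower with Ube2m than with Ube2f (adjusted p = 0.000128), and kept both calls whichever array was left out, centred or averaged.

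The death receptor pathway, which reaches the family through Bid, had 8 of 12 genes tested, with 2 higher and 1 lower with Ube2m (median -0.030) and, with Ube2f, 0 called by limma and 2 at an unadjusted p under 0.05 (median 0.036). The receptor gene Fas gave 302.8, 468.1 and 615.2 in control and 1054, 853.3 and 736.9 with Ube2m, which was a rise of 0.95 (adjusted p = 0.0241). Tnfrsf10b, the mouse TRAIL receptor gene, rose by 0.85 (adjusted p = 0.0129) and was 0.81 higher with Ube2m than with Ube2f (adjusted p = 0.00952). Fadd, the adaptor of both receptors, fell by 0.59 with Ube2m (adjusted p = 0.0169) and was lower by 0.53 than with Ube2f (Ube2m minus Ube2f -0.53, adjusted p = 0.0171). Against control, Fas was no longer called without control replicate 1, control replicate 2, Ube2m replicate 1 or Ube2m replicate 2, Tnfrsf10b without control replicate 1, Ube2m replicate 1 or Ube2m replicate 2, and Fadd without Ube2m replicate 2. Against Ube2f, Fadd lost its call without Ube2m replicate 2 or Ube2f replicate 1, and Tnfrsf10b kept it in every such refit. With arrays centred the calls of Fas (adjusted p = 0.092) and of Fadd against Ube2f (0.0821) were lost, and with probe sets averaged both calls of Fadd (-0.50, adjusted p = 0.072, and -0.42, adjusted p = 0.0932), while both of Tnfrsf10b were kept.

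Downstream of the family, 12 of 12 mitochondrial death factors and apoptosome genes were tested, and against control limma called 0 with Ube2m (1 at an unadjusted p under 0.05, median 0.016) and 1 with Ube2f (median 0.18). Vdac1, a channel of the outer mitochondrial membrane, was that gene (-0.42, adjusted p = 0.0453), and it was called in only 2 of 9 refits that left out 1 array, those without Ube2f replicate 2 or Ube2m replicate 3. It was also higher with Ube2m than with Ube2f (0.43, adjusted p = 0.0175), a call lost without Ube2m replicate 1, Ube2m replicate 2 or Ube2f replicate 1. With arrays centred both Vdac1 calls were lost (adjusted p = 0.328 and 0.307). Between the hairpins Endog, a mitochondrial nuclease, was lower with Ube2m (-0.94, adjusted p = 0.00347, kept in 9 of 9 refits, centred and averaged), as was Diablo, an antagonist of inhibitor of apoptosis proteins (-0.54, adjusted p = 0.0113, lost without Ube2m replicate 2 or Ube2f replicate 1, with arrays centred, adjusted p = 0.14, and with probe sets averaged, -0.37 with adjusted p = 0.114). Of 6 caspases tested, Casp12 alone was called, higher by 0.64 with Ube2m (adjusted p = 0.0406), a call kept in 3 of 9 refits, those without control replicate 3, Ube2f replicate 2 or Ube2f replicate 3. It was also lost centred (adjusted p = 0.0611) and averaged (0.0731). The caspase medians were 0.043 with Ube2m and -0.051 with Ube2f. Of 8 inhibitor of apoptosis genes tested, 0 were called against control by limma with either hairpin (2 with Ube2m and 3 with Ube2f at an unadjusted p under 0.05, medians -0.0017 and 0.21), and 2 were lower with Ube2m than with Ube2f. These were Naip2 (-0.40, adjusted p = 0.0386, lost with arrays centred, 0.158, and in all 9 refits but those without control replicate 1 or control replicate 3) and Naip5 (adjusted p = 0.0196, lost without Ube2m replicate 2, Ube2f replicate 1 or Ube2f replicate 3). Naip5 signals were 51.3, 45.9 and 46.7 with Ube2m, under the filter signal of 53.8, and 122.4, 109.8 and 139.2 with Ube2f, so that no size is given for that difference.

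Upstream, 9 of 11 transcription factors known to act on BH3-only genes were tested, and limma called 0 with Ube2m against control, with 5 at an unadjusted p under 0.05 (median 0.080), and 1 with Ube2f (median 0.19). Foxo1 and Foxo3, which act on Bcl2l11, differed by 0.30 (adjusted p = 0.124) and 0.40 (adjusted p = 0.151) with Ube2m, and by 0.19 and 0.31 with Ube2f. Foxo4, the other FOXO gene tested in the list, went the other way. It differed by -0.22 with Ube2m (limma adjusted p = 0.498) and by -0.39 with Ube2f (adjusted p = 0.252). None of these FOXO differences was called, and a part of FOXO factors in the Bcl2l11 result was not tested. Ddit3, the gene of the stress factor CHOP, gave 967.6, 1145 and 616.7 in control and 2104, 1991 and 1329 with Ube2f, and rose by 1.00 (adjusted p = 0.0261), a call lost without control replicate 1, control replicate 3, Ube2f replicate 1 or Ube2f replicate 2. It was 0.91 lower with Ube2m than with Ube2f (adjusted p = 0.0173), a call lost without Ube2f replicate 1, Ube2f replicate 2 or Ube2m replicate 3. With arrays centred both Ddit3 calls were lost (adjusted p = 0.172 and 0.0911). Between the hairpins Jun was lower with Ube2m (-0.66, adjusted p = 0.00593, kept in 9 of 9 refits and lost with probe sets averaged, -0.58 with adjusted p = 0.0619). Of 13 p53 targets outside the family that were tested, 3 fell with Ube2m (median -0.033), where 6.12% of all genes were lower, and 1 with Ube2f (median -0.058), where 2.96% were. Zmat3 fell with both (-0.76, adjusted p = 0.00226, and -0.78, adjusted p = 0.00263) and Phlda3 with Ube2m (-0.58, adjusted p = 0.00509), each kept in 9 of 9 refits. With arrays centred both Zmat3 calls were kept and that of Phlda3 was lost (-0.67, adjusted p = 0.0735). Cdkn1a, the gene of the cell cycle inhibitor p21, fell with Ube2m by 0.39 (adjusted p = 0.0349), a call lost without any 1 of the 3 controls, Ube2m replicate 1 or Ube2m replicate 2. It was lost as well with arrays centred (adjusted p = 0.139) and with probe sets averaged, where Cdkn1a differed by -0.12 (adjusted p = 0.613).

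Genes whose products control the turnover of BCL2 family proteins made up the last list, with 15 of 17 tested, 4 lower with Ube2m (median -0.074, beside 6.12% of all genes) and 0 called by limma with Ube2f against control, where 1 had an unadjusted p under 0.05 (median -0.036). Btrc, a substrate receptor of cullin ligases, gave 509.9, 472.7 and 435.5 in control, 314.2, 332.4 and 324.6 with Ube2m, and 441.5, 534.9 and 592.1 with Ube2f. Its difference was -0.52 from control (adjusted p = 0.0343) and -0.66 from Ube2f (adjusted p = 0.00716), the latter kept in 9 of 9 refits. With probe sets averaged neither was called (-0.42, adjusted p = 0.255, and -0.47, adjusted p = 0.16). Rnf7, which encodes the RING partner of cullin 5, fell with Ube2m (-0.48, adjusted p = 0.0363), as did the ligase genes Itch (-0.51, adjusted p = 0.037) and Trim2 (-0.42, adjusted p = 0.0491). Against control, Btrc and Rnf7 kept their calls in 4 of 9 refits each and Itch and Trim2 in 2 of 9 each, and all 4 lost them without control replicate 1, control replicate 2, Ube2m replicate 1 or Ube2m replicate 3. Without Ube2m replicate 2 the calls of Btrc, Itch and Trim2 were lost, without control replicate 3 those of Rnf7 and Trim2, without Ube2f replicate 1 those of Itch and Trim2, and without Ube2f replicate 2 that of Itch. With arrays centred none of the 4 was called against control (adjusted p 0.0556 for Btrc, 0.142 for Rnf7, 0.102 for Itch and 0.0848 for Trim2). Averaging probe sets gave -0.41 for Rnf7 (adjusted p = 0.0863), -0.25 for Trim2 (0.571) and -0.12 for Itch (0.851).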

How the data were processed

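Labelled RNA of 9 cultures was hybridized to 1-colour arrays, and the deposited values are intensity signals on a linear scale, which the submitters' processing notes credit to MAS5. The sources used here do not give its version or settings. The mean signal left after trimming 2% at each end was 500 on every array, so arrays had been scaled by 1 factor. Detection calls were not used, and for arrays their number limits the precision.

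Signals were taken as log2(signal + 16). Of 45101 probe sets, 64 controls, 932 with several gene names and 9160 with none were left out, which kept 34945. A gene was tested if the mean of its main probe set was at least 6.12 in log2 (a signal of 53.8), which is the median probe set once controls are left out. One linear model with a mean per group was fitted to 9 arrays with limma 3.58.1 in R 4.3.3 (eBayes, trend = TRUE, with 6.55 prior degrees of freedom). Tests are two-sided, with Benjamini-Hochberg adjustment across every gene, or probe set, in a comparison. The same steps were tested on simulated data.

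Named were all members, called genes of the lists (at most 4 per list and comparison) and the 2 genes closest to each called member. Foxo1, Foxo3 and Foxo4 were named outside that rule. E2f1, Myc and the called markers, which the rule also names, are given in the observations at the end. Members and lists were chosen with earlier results of these data known. Deviations of same-numbered Ube2m and Ube2f arrays had r = 0.20, 0.21 and 0.56 for replicates 1, 2 and 3. The replicate block was taken from these correlations and the labels' numbers, and true pairing was not tested. Alternatives changed 1 choice at a time: the constant, filter, probe set rule, scaling, arrays fitted, replicate block, replicate 3 as a separate term, beta-actin ratio and each array left out. Centring on the median of the genes tested was added after seeing the data.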

Additional observations from a re-analysis of the deposited data

How the results depend on the processing

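Of 594 member values under 22 alternatives, 500 kept direction and side of the threshold, 25 lost and 29 gained a call, and 40 changed sign, none of them while called in both. Called members with Ube2m against control (3) numbered 1 with arrays centred on their median, 1 with the beta-actin covariate, 5 with replicate 3 as a term, 5 in replicates 1 and 2 and 0 to 3 with an array left out. With Ube2f (0) they were 1 after quantile normalization, 2 with the replicate block, replicate 3 term or replicates 1 and 2, and 0 to 1. Between hairpins (2) they were 1 without the filter, 1 centred, 5 with the block, 5 with the replicate 3 term, 4 in replicates 1 and 2, and 0 to 3. The block against control added Bcl2l2 with Ube2m (adjusted p = 0.0333) and with Ube2f (0.0434), and Mcl1 with Ube2f (0.0231). 4 of 9 arrays were closest to their own number.

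Signs turned with probe sets averaged for Bcl2 (0.11) and Bcl2l1 (0.29) with Ube2f, Bcl2l1 (0.13) and Bak1 (0.35) with Ube2m, Bak1 with Ube2f (0.19), and Bcl2l2 between hairpins (-0.17). For Bcl2, Bcl2l1 and Bcl2l2 the averages took in probe sets below the filter. Centring turned Mcl1 with Ube2m (-0.040), Bcl2l2 (-0.017) and Bak1 (-0.016) between hairpins, and, on genes tested, Bcl2 with Ube2f (0.0087) and Bak1 with Ube2m (0.060). Quantiles turned Bak1 with Ube2m (0.011). The covariate turned Mcl1 (-0.025) and Bak1 (0.069) with Ube2m, Bak1 (0.072) and Bbc3 (0.082) with Ube2f, and Bcl2l2 (-0.0088) and Bak1 (-0.0029) between hairpins. Replicates 1 and 2 turned Bak1 between hairpins (-0.11). Causes were not tested. Leaving out 1 array gave ranges across 0 with Ube2m for Mcl1 (-0.043 to 0.15) and Bak1 (-0.20 to 0.092), with Ube2f for Bcl2 (-0.11 to 0.075), Bak1 (-0.10 to 0.079), Bcl2l11 (-0.045 to 0.45), Bbc3 (-0.19 to 0.10) and Pmaip1 (-0.017 to 0.13), and between hairpins for Bcl2l2 (-0.078 to 0.088), Bak1 (-0.18 to 0.12) and Bbc3 (-0.34 to 0.041). Over all genes, calls against control and between hairpins numbered 1031, 551 and 1672 (37.0%, 43.0% and 40.4% higher). They were 525, 222 and 868 centred (23.6%, 22.5% and 41.0%), and 966, 547 and 1601 centred on genes tested (55.3%, 43.9% and 53.5%). With the block they were 1866, 1225 and 2493. With the replicate 3 term they were 2118, 1461 and 2714, and in replicates 1 and 2 they were 1747, 1121 and 2032. With the beta-actin covariate 448 genes were called with Ube2m against control. The member counts at these settings stand beside these totals.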

Other observations

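Called genes of the lists not described above were E2f1 and Myc among the transcription factors, and Pdgfra, Pdgfrb, Thy1, Cd14, Krt14 and Acta1 among the markers. E2f1, a cell cycle factor, was lower with Ube2m than with Ube2f (-0.59, limma adjusted p = 0.035) and Myc, a growth factor-responsive gene, higher (0.48, adjusted p = 0.046). E2f1 lost its call without Ube2m replicate 1 or 2 or without any 1 of the Ube2f arrays and with arrays centred (adjusted p = 0.0717), and with probe sets averaged its sign turned (0.056, adjusted p = 0.91). Myc kept its call only without control replicate 1 or control replicate 3, and lost it centred (0.115) and averaged (0.0623). Pdgfra, a growth factor receptor gene of fibroblasts, rose with Ube2f (0.72, adjusted p = 0.00997) and was lower with Ube2m than with Ube2f (-0.96, adjusted p = 0.000578), both kept whichever array was left out, the former lost with probe sets averaged (0.73, adjusted p = 0.0503). Pdgfrb was lower with Ube2m than with Ube2f (-0.51, adjusted p = 0.00928, kept in 9 of 9 refits, lost with arrays centred, adjusted p = 0.0587, and averaged, 0.0935). Thy1 fell with Ube2m (-0.70, adjusted p = 0.0163, lost without Ube2m replicate 1 or Ube2m replicate 2) and was lower than with Ube2f (-0.67, adjusted p = 0.0114, lost without Ube2m replicate 1 and, centred, at an adjusted p of 0.0512).

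Of the markers of other cell types, Krt14 was higher with Ube2m than with Ube2f (0.98, adjusted p = 0.00599, kept in 9 of 9 refits, lost centred at an adjusted p of 0.0599), as were Acta1 (0.97, adjusted p = 0.00253, kept in 9 of 9) and Cd14 (0.52, adjusted p = 0.0294, lost without Ube2m replicate 1 or 2 or any 1 of the Ube2f arrays and, centred, at an adjusted p of 0.207). Acta1 also rose with Ube2m against control (0.68, adjusted p = 0.0278, lost without control replicate 1 or 2 or Ube2m replicate 1 or 2 and, centred, at an adjusted p of 0.161). Among the genes closest to the called members, Calr3 was called higher with Ube2m (adjusted p = 0.000398), at 467 ± 39.4 (SD, n = 3) against 40.1 ± 32.3 in control and 54.4 ± 13.5 with Ube2f, and passed the filter through its Ube2m level. Marcksl1 rose with Ube2m by 0.82 (adjusted p = 0.00854) and Med19 by 0.44 (adjusted p = 0.0351), Hcfc1 fell (-0.51, adjusted p = 0.0332), and Sidt2 (-0.40, adjusted p = 0.0677) and Lpin1 (0.52, adjusted p = 0.174) were not called.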
